A study of Mus musculus with 12 samples.

Results

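The Fc and scavenger receptors described here are 10 genes measured in RAW 264.7 cells, a transformed mouse macrophage-like line: the IgG receptors Fcgr1, Fcgr2b, Fcgr3 and Fcgr4, their signalling chain Fcer1g, the scavenger receptors Msr1, Marco, Cd36 and Scarb1, and the mannose receptor Mrc1. They were chosen by symbol from the 19505 genes with a name on the Affymetrix array. Each of the 10 has 1 probe set, so no choice among probe sets was needed. The 12 arrays form 4 groups of 3. The groups are inulin with TsSP and LPS, TsSP with LPS, inulin with LPS, and LPS alone, with TsSP at 50 µg/mL, inulin at 500 µg/mL and LPS at 500 ng/mL for 6 hours. LPS is the bacterial cell-wall lipopolysaccharide that activates macrophages, and inulin is a plant fructan. TsSP is an abbreviation left as the labels give it, in a design that speaks of helminth products. Every group carries LPS, so each change below is a change within LPS-treated cells of 1 line. The labels do not state whether a group is 3 independent cultures. P-values therefore measure the spread between these arrays, which may be technical.

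Fcγ receptors bind the constant part of IgG and let a macrophage recognise antibody-coated particles. Fcgr1, Fcgr3 and Fcgr4 are activating and depend on the γ chain encoded by Fcer1g, whose tyrosine motif recruits the kinase Syk, while Fcgr2b carries an inhibitory motif in its own tail that recruits the phosphatase encoded by Inpp5d. Scavenger receptors take up modified lipoproteins, microbes and dying cells without antibody, and Scarb1 differs from the others in moving cholesterol between cells and high-density lipoprotein.

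The promoters of the 4 IgG receptor genes are shown because the group holds both activating and inhibitory receptors whose signals are compared below. Each is RefSeq sequence of build GRCm38.p6, 300 bases in all, with 250 before and 50 after the annotated start, read 5′ to 3′ on the strand of the gene. Capitals mark matches on either strand to GAAANNGAAA (like an interferon-stimulated response element), TTCNNNGAA (like a STAT site) or GAGGAA (like a PU.1 site).
Fcgr1, chr3:96293920-96294219, minus strand: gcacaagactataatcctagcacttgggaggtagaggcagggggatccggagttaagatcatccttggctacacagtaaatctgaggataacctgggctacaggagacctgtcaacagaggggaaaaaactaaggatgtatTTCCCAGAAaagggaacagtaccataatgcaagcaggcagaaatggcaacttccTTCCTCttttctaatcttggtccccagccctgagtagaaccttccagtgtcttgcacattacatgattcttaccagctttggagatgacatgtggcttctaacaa
Fcgr3, chr1:171059354-171059653, minus strand: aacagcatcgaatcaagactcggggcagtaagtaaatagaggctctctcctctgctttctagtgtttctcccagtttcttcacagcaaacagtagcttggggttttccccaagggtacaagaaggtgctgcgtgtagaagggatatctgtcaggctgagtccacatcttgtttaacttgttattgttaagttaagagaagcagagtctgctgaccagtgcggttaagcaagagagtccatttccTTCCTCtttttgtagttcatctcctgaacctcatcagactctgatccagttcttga
Fcgr4, chr1:171018676-171018975, plus strand: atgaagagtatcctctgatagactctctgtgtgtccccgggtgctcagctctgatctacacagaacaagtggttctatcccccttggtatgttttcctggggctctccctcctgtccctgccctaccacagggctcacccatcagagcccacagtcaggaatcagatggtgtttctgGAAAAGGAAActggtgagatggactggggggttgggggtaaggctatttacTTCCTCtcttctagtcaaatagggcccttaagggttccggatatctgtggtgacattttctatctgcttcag
Fcgr2b, chr1:170976022-170976321, minus strand: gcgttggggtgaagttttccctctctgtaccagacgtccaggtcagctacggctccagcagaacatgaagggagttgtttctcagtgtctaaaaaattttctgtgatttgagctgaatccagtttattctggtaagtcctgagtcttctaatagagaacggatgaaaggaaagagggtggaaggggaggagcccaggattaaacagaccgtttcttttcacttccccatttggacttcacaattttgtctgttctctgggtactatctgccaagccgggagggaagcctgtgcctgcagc

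The interferon-type motif was found 73 bases before the start of Fcgr4 and occurs in 3.44% of 32851 mouse promoters of that length. The STAT-type motif lay 109 bases before the start of Fcgr1 and is held by 8.3% of promoters. The PU.1-type motif lay on the reverse strand 55 bases before the start of Fcgr1, 22 before that of Fcgr4 and 6 before that of Fcgr3, and 28.3% of promoters hold it. For Fcgr3 the promoter set holds 2 windows, of which the 1 printed above is described here. No letters of these 3 motifs were found in the Fcgr2b window. Promoters of 8 of the 10 genes, all but Scarb1 and Msr1, were matched, and those of Marco and Mrc1 also held the PU.1-type motif. A looser motif like an NF-kB site, GGGNNNNNCC, was present in 7 of the 8 windows and in 50.8% of all promoters, and one like an antioxidant response element, TGACNNNGC, was in 0 of the 8 and in 12.4% of all. No 2 different motifs overlapped in these windows, and a match is a description of letters, not of binding.

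The deposited values are log2 signals, so a difference of 1 is a 2-fold change. A gene was taken as above background on an array when it exceeded the brightest of 23 background probe sets, which lay between 6.16 and 6.28. Array medians lay between 5.16 and 5.3, and 8771 to 9059 genes per array were above background. LPS replicate 1 had the lowest median and stood apart in its background probes, with a median of 4.99 against 5.2 to 5.43 on the other arrays. All 7 measured macrophage markers of 8 listed, Fcgr1 among them, were above background on all 12 arrays. Among these, Adgre1 averaged 12.92 with TsSP and 14.02 without, and Itgam 15.53 with TsSP and 14.82 without. Of the markers of other cell types, 19 of 24 measured were above background on no array and 2 on all 12. These 2 were the endothelial marker Pecam1, averaging 7.4 with TsSP and 7.17 without, and the fibroblast marker Dcn, averaging 6.7 and 7.31. The endothelial marker Cdh5 averaged 5.92 with TsSP and 7.14 without, above background on 7 arrays. The neutrophil marker S100a8 averaged 8.78 on the 6 arrays with TsSP and 4.31 on the 6 without, while the other 3 measured neutrophil markers were above background on no array. In limma, TsSP against LPS alone called 3525 genes, 60.8% of them higher, but 31.8% of calls were higher after each array was centred on its 1324 exon control probe sets. The median of those controls was 11.22 to 11.36 with TsSP and 11.0 to 11.21 without, a difference of 0.16, whereas the median change of all genes was near 0.

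Of the receptors, 8 were above background on all 12 arrays. Cd36 and Mrc1 were below it on all 12. Of the 8, Scarb1 was higher on all 6 arrays with TsSP than on all 6 without, and so were Fcgr1, Fcgr3 and Fcgr4. Inulin changed none of the 10 past the threshold.

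**Figure D1:**
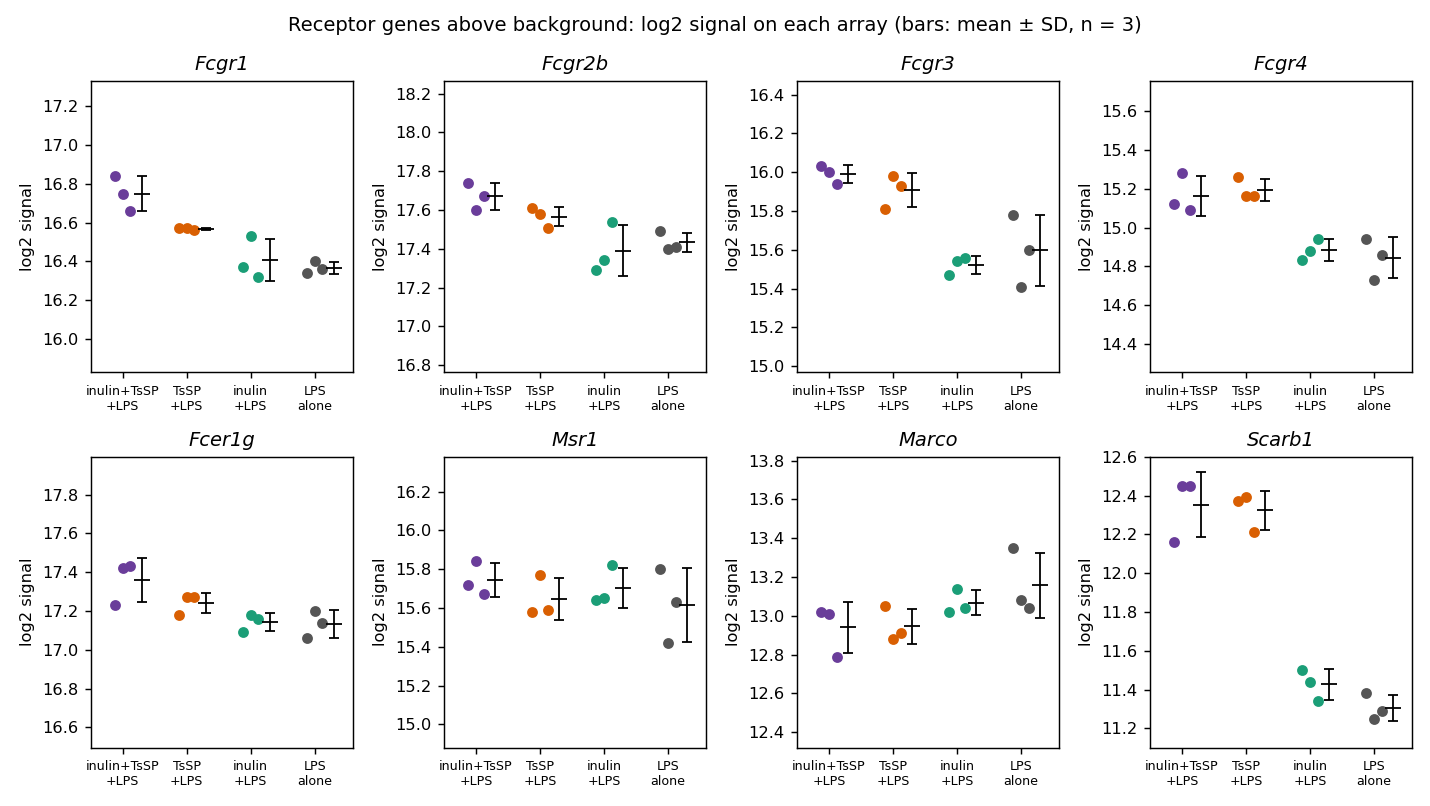
Log2 signal of the 8 receptor genes above background, with 1 point per array, in the order inulin with TsSP, TsSP, inulin and LPS alone (all with LPS). Bars are mean ± SD (n = 3), every panel spans the same number of log2 units, and Scarb1 shows the widest gap, with 12.16 to 12.45 on the arrays with TsSP and 11.25 to 11.5 on those without.

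Fcgr1 encodes the high-affinity IgG receptor. Its log2 signal was 16.84, 16.75 and 16.66 with inulin and TsSP, 16.57, 16.57 and 16.56 with TsSP, 16.37, 16.53 and 16.32 with inulin, and 16.34, 16.4 and 16.36 with LPS alone. The arrays with TsSP lay above all those without it, and the 3 with both agents lay above the 3 with TsSP alone. In limma, the difference between both agents and LPS alone was 0.39 (SE 0.107, 1.31-fold, adjusted p = 0.0267). That call was lost without LPS replicate 1, 2 or 3 and without replicate 1 or 2 of the combination (adjusted p up to 0.0925). TsSP added to inulin gave 0.34 (1.27-fold, limma adjusted p = 0.0474), a call kept in 1 of the 12 fits that leave out an array, the one without inulin replicate 2. TsSP against LPS alone gave 0.2 (95% interval -0.04 to 0.43, limma adjusted p = 0.258), although the 3 arrays of each group did not overlap.

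Fcgr3 encodes a low-affinity activating receptor. Its signal was 16.03, 16 and 15.94 with inulin and TsSP, 15.81, 15.98 and 15.93 with TsSP, 15.47, 15.54 and 15.56 with inulin, and 15.78, 15.41 and 15.6 with LPS alone. All 6 arrays with TsSP were above the 6 without, but LPS replicate 1, at 15.78, came close to the lowest of them, at 15.81. It rose when TsSP was added to inulin by 0.47 (SE 0.119, 1.38-fold, limma adjusted p = 0.0181) and was 0.39 higher with both agents than with LPS alone (1.31-fold, limma adjusted p = 0.0405). The first call was lost without inulin replicate 1 or without replicate 1 or 2 of the combination (adjusted p up to 0.0652), and the second in 11 of 12 fits, all but the one without LPS replicate 1. TsSP against LPS alone gave 0.31 (95% interval 0.05 to 0.57, limma adjusted p = 0.104), and without LPS replicate 1 it gave 0.4 and an adjusted p of 0.047.

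Fcgr4 encodes an activating receptor for IgG2 subclasses in the mouse. Its signal was 15.12, 15.28 and 15.09 with inulin and TsSP, 15.26, 15.16 and 15.16 with TsSP, 14.83, 14.88 and 14.94 with inulin, and 14.94, 14.73 and 14.86 with LPS alone. The 6 arrays with TsSP again lay above the 6 without, and the 3 with both agents spanned those with TsSP alone. TsSP against LPS alone gave 0.35 (SE 0.11, 1.27-fold, limma adjusted p = 0.0471). The call was kept in 1 of 12 fits that leave out an array, the one without LPS replicate 1, with adjusted p of 0.0452 to 0.145 over the 12. With both agents against LPS alone the difference was 0.32 (limma adjusted p = 0.0666), and for TsSP added to inulin 0.28 (limma adjusted p = 0.119).

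Fcgr2b encodes the inhibitory receptor, and Fcer1g the γ chain that the activating receptors share. Fcgr2b measured 17.74, 17.6 and 17.67 with inulin and TsSP, 17.61, 17.58 and 17.51 with TsSP, 17.29, 17.34 and 17.54 with inulin, and 17.49, 17.4 and 17.41 with LPS alone. Fcer1g measured 17.23, 17.42 and 17.43 with inulin and TsSP, 17.18, 17.27 and 17.27 with TsSP, 17.09, 17.18 and 17.16 with inulin, and 17.06, 17.2 and 17.14 with LPS alone. For each gene 1 or more arrays without TsSP reached into the range of those with it, and neither was called in any comparison of 3 arrays with 3. The largest difference of Fcgr2b was 0.28 for TsSP added to inulin (95% interval 0.04 to 0.52, limma adjusted p = 0.122). That of Fcer1g was 0.23 for both agents against LPS alone (95% interval -0.01 to 0.46, limma adjusted p = 0.19).

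Scarb1, the receptor for high-density lipoprotein, had the largest change of the 10 genes. Its signal was 12.16, 12.45 and 12.45 with inulin and TsSP, 12.37, 12.39 and 12.21 with TsSP, 11.5, 11.44 and 11.34 with inulin, and 11.38, 11.25 and 11.29 with LPS alone. The gap between the lowest array with TsSP and the highest without exceeded the spread within every group. It rose 2.02-fold with TsSP against LPS alone (log2 1.01, SE 0.12, limma adjusted p = 0.000117), 2.06-fold with both agents against LPS alone (log2 1.04, limma adjusted p = 9.49e-05) and 1.9-fold when TsSP was added to inulin (log2 0.92, limma adjusted p = 0.000232). These calls held in all 20 alternative settings, where the 3 differences lay between 0.81 and 1.14.

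The class A scavenger receptors Msr1, which takes up modified low-density lipoprotein, and Marco, which binds bacteria and particles, were not called in any comparison. Msr1 measured 15.72, 15.84 and 15.67 with inulin and TsSP, 15.58, 15.77 and 15.59 with TsSP, 15.64, 15.65 and 15.82 with inulin, and 15.8, 15.42 and 15.63 with LPS alone. Its 4 groups overlapped throughout, and TsSP against LPS alone gave 0.03 (95% interval -0.25 to 0.31, limma adjusted p = 0.913). Marco measured 13.02, 13.01 and 12.79 with inulin and TsSP, 13.05, 12.88 and 12.91 with TsSP, 13.02, 13.14 and 13.04 with inulin, and 13.35, 13.08 and 13.04 with LPS alone. Marco was the only one of the 8 receptors above background whose difference with TsSP was negative in all 3 comparisons, at -0.22 for both agents against LPS alone (95% interval -0.49 to 0.06, limma adjusted p = 0.293), -0.21 for TsSP against LPS alone (limma adjusted p = 0.31) and -0.13 for TsSP added to inulin (limma adjusted p = 0.598). The highest Marco signal was that of LPS replicate 1.

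Cd36, a receptor for oxidised lipids and fatty acids, and Mrc1, the mannose receptor often used as a marker of alternative activation, were not above background. Cd36 measured 3.61, 4.33 and 3.92 with inulin and TsSP, 4.4, 3.33 and 4.49 with TsSP, 3.21, 3.21 and 3.61 with inulin, and 4.28, 3.75 and 4.05 with LPS alone. Mrc1 measured 4.58, 4.39 and 4.08 with inulin and TsSP, 4.69, 4.35 and 3.97 with TsSP, 4.17, 4.89 and 3.87 with inulin, and 3.86, 4.37 and 4.36 with LPS alone. Every one of these signals was lower than the background level of its array, so no fold is given for either gene.

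**Figure D2:**
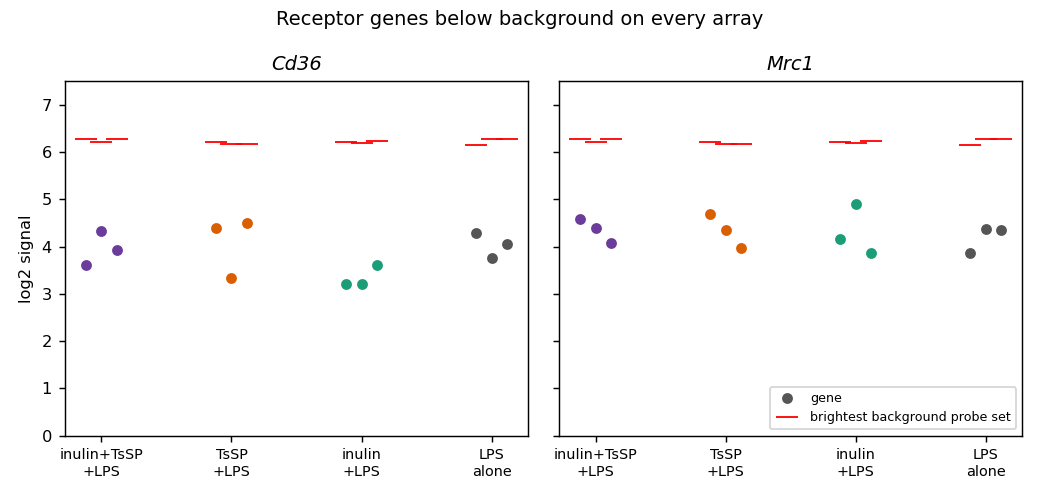
Log2 signal of Cd36 and Mrc1 on each array (points), with the brightest background probe set of the same array as a red dash, in the order inulin with TsSP, TsSP, inulin and LPS alone (all with LPS). Cd36 reached at most 4.49 and Mrc1 at most 4.89, below the dashes at 6.16 to 6.28.

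Counted over the 10 genes, both agents against LPS alone called 3 higher, Scarb1, Fcgr1 and Fcgr3, beside 10.3% of all genes higher and 17.6% in either direction. TsSP against LPS alone called 2 higher, Scarb1 and Fcgr4, beside 11.0% of all genes higher and 18.1% in either direction. TsSP added to inulin called Scarb1, Fcgr3 and Fcgr1, beside 8.66% higher and 16.7% in either direction. Background was exceeded in all 4 groups by 8 of the 10 receptors. Of the 8289 such genes, 33.9%, 34.2% and 32% were called in either direction, in the same order of comparisons. None of the 10 was called lower in these comparisons, beside 7.08% to 7.99% of all genes. Between 3 and 5 of the 10 had an unadjusted limma p under 0.05, beside 5350 to 5591 of the 19505 genes. The arrays with TsSP lay wholly above those without for 6 of the 10 in both comparisons that include the combination, beside 17.8% of all genes for the combination against LPS alone and 16.8% for TsSP added to inulin, and for 5 of the 10 with TsSP against LPS alone, beside 19.1%. Fcer1g was the receptor gene that made the difference between 6 and 5. An F test over the 4 groups called Scarb1 (adjusted p = 5.43e-05) and Fcgr3 (adjusted p = 0.0309), beside 18.7% of all genes. The comparisons with LPS alone share its 3 arrays, and TsSP added to inulin shares the combination arrays with 1 of them.

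**Figure D3:**
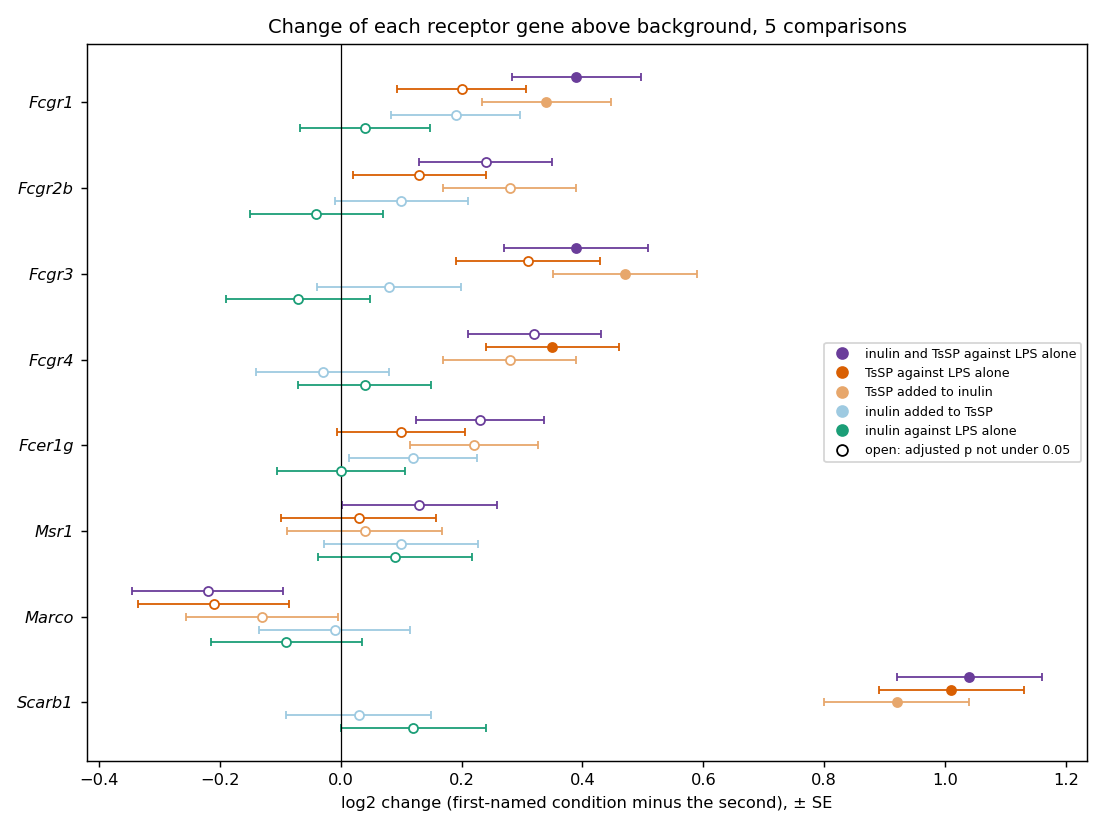
Log2 change (± SE from limma) of the 8 receptor genes above background in 5 comparisons, with filled points for adjusted p under 0.05. The 3 comparisons that add TsSP lie right of 0 for all genes but Marco, and those that add inulin lie between -0.09 and 0.19. For Fcgr1, Fcer1g and Msr1, inulin added to TsSP (0.19, 0.12 and 0.1) is near or above TsSP against LPS alone (0.2, 0.1 and 0.03). For TsSP against LPS alone the sign of Fcgr1, Fcgr2b, Fcer1g and Msr1 turns when arrays are centred on exon controls, to -0.01, -0.07, -0.1 and -0.18. That of Msr1 turns in the other 2 TsSP comparisons too, to -0.07 in each.

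The 2 TsSP contrasts were then averaged, which sets 6 arrays with TsSP against 6 without in the same limma model; this comparison was chosen after the others had been seen. Scarb1 rose by 0.97 (1.96-fold, 95% interval 0.78 to 1.16, limma adjusted p = 4.96e-06), Fcgr3 by 0.39 (1.31-fold, 0.2 to 0.57, adjusted p = 0.00446), Fcgr4 by 0.31 (1.24-fold, 0.14 to 0.49, adjusted p = 0.0101) and Fcgr1 by 0.27 (1.21-fold, 0.11 to 0.44, adjusted p = 0.0191). These 4 of 10 were called higher beside 14.8% of all genes, with 25.8% called in either direction. Among the 1038 genes with a mean signal above 14, the share called in either direction was 52.2%. For the same 4 the 6 arrays lay wholly above the other 6, beside 10.4% of all genes. The 3 activating IgG receptors were each called in all 12 fits that leave out an array. Fcgr2b differed by 0.21 (95% interval 0.04 to 0.37, limma adjusted p = 0.0767). It was called in 3 of 20 alternatives (limma adjusted p down to 0.000258), among them the fit without inulin replicate 3 (adjusted p = 0.046). Fcer1g differed by 0.16 (limma adjusted p = 0.151) and was called in 2 of 20 alternatives (limma adjusted p down to 0.00242). Msr1 differed by 0.04 (95% interval -0.16 to 0.23, limma adjusted p = 0.837) and Marco by -0.17 (95% interval -0.36 to 0.03, limma adjusted p = 0.212).

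The exon controls were 0.16 higher with TsSP in the same comparison, a shift that equals the difference of Fcer1g and is smaller than that of the other 4 Fc receptor genes. After each array was centred on those controls, a setting chosen after seeing the data, Fcgr3 differed by 0.23 (limma adjusted p = 0.088), Fcgr4 by 0.16 (adjusted p = 0.224), Fcgr1 by 0.11 (adjusted p = 0.313), Fcgr2b by 0.05 (adjusted p = 0.735) and Fcer1g by 0.0 (adjusted p = 0.973). None of these 5 was then called, whereas Scarb1 was still higher by 0.81 (limma adjusted p = 6.04e-05) and Marco was called lower, by -0.33 (limma adjusted p = 0.0345). Among the 1038 genes with a mean signal above 14, the range in which all 5 Fc receptor genes and Msr1 lie, the median difference was 0.03, with quartiles at -0.27 and 0.25, and 52.2% were called. Fcgr1, Fcgr3 and Fcgr4 were above that upper quartile, and Fcgr2b and Fcer1g were below it. The part of the exon controls' shift, and of the markers S100a8, Adgre1, Itgam, Cdh5, Pecam1 and Dcn, in the Fc receptor changes was not tested. In these bulk samples more cells that express a gene and more RNA per cell cannot be told apart.

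**Figure D4:**
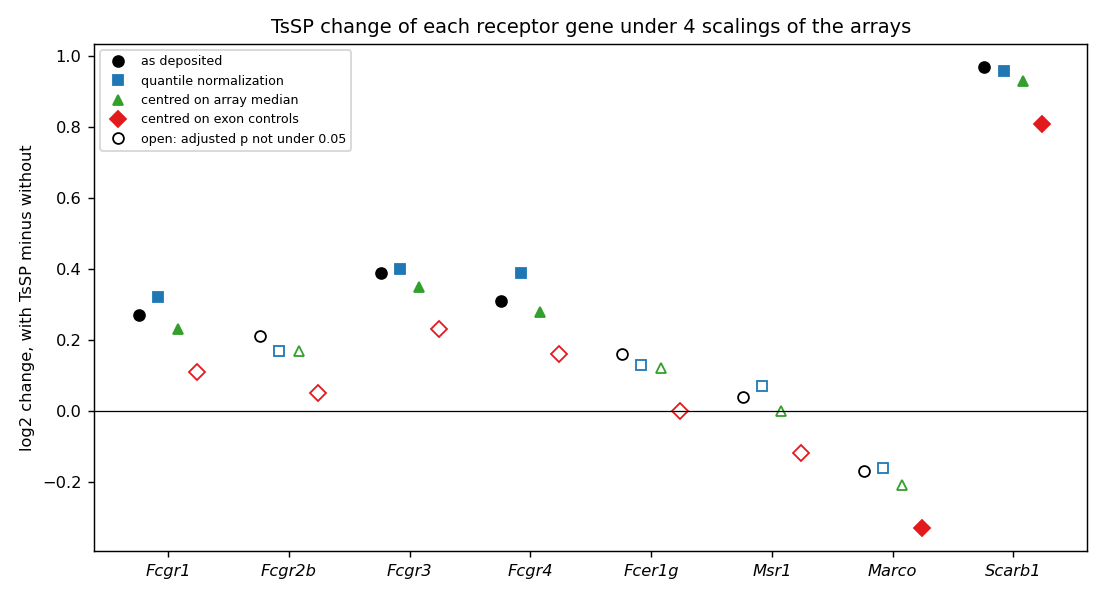
Log2 difference between the 6 arrays with TsSP and the 6 without for the 8 receptor genes above background, with values as deposited, quantile normalized, centred on array medians and centred on exon controls. Filled points have an adjusted p under 0.05: Scarb1 is filled under all 4, Fcgr1, Fcgr3 and Fcgr4 under 3, and Marco under exon controls, where Msr1 turns to -0.12.

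A shift equal for all genes of an array cancels in the difference between 2 of them, but one that varies with signal does not. Each activating receptor was also set against the inhibitory receptor Fcgr2b within the array, which removes only the equal shift. The log2 difference between Fcgr3 and Fcgr2b was -1.8 to -1.58 on the 6 arrays with TsSP and -1.99 to -1.71 on the 6 without. The ranges overlapped, and the mean was 0.18 higher with TsSP (1.14-fold), at 0.19 with inulin and 0.18 without it. An exact two-sided permutation test within inulin state (400 arrangements, smallest possible p 0.005) gave p = 0.015, and 0.045 adjusted over the 3 ratios. Without single arrays the adjusted p ranged from 0.03 to 0.15 and was under 0.05 in 2 of 12, so the call rests on the whole set of arrays. The ratio of Fcgr1 to Fcgr2b was higher by 0.07 (exact permutation p = 0.395, adjusted 0.395) and that of Fcgr4 to Fcgr2b by 0.11 (exact permutation p = 0.125, adjusted 0.188), with 0.0 in the arrays with inulin and 0.22 in those without. After quantile normalization the Fcgr1 and Fcgr4 ratios were higher by 0.15 and 0.22 over all 12 arrays, and both were called (exact permutation test, adjusted p = 0.035 and 0.03). Which of the 3 ratios were called thus changed with the normalization. The mouse Fcgr2b and Fcgr3 genes share nearly identical stretches for their extracellular part, so probes may read both transcripts, and values that separate the pair are uncertain.

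Inulin against LPS alone and inulin added to TsSP called 0 of the 10 receptors in limma, as did the interaction of TsSP and inulin, beside 0% of all genes in each. At an unadjusted p under 0.05, 1143 of all genes were counted for inulin against LPS alone, 971 for inulin added to TsSP and 1089 for the interaction. Of the receptors, only Cd36 was among those genes, with inulin against LPS alone, and it was below background. The 8 receptors above background differed by -0.09 to 0.12 between inulin and LPS alone, with 95% intervals reaching -0.37 and 0.38, and by -0.03 to 0.19 when inulin was added to TsSP, with intervals reaching -0.28 and 0.42. The highest was Fcgr1, at 0.19 with inulin added to TsSP (limma adjusted p = 0.982). Its arrays did not overlap, nor did those of 11.1% of all genes in that comparison, and for inulin against LPS alone 10.2% of all genes did not overlap, Cd36 among the receptors. For Scarb1 the interaction was -0.09 (95% interval -0.46 to 0.28, limma adjusted p = 0.995), so the response to TsSP was not shown to differ with inulin.

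The genes whose signals over the 12 arrays were nearest to those of Scarb1, by root mean square difference after centring among 8149 genes, were Unc119 (0.084), Fads2 (0.09) and Ero1a (0.094), where Scarb1 itself varied by 0.495. Unc119 carries lipid-modified proteins, Fads2 is a fatty acid desaturase and Ero1a an oxidase of the endoplasmic reticulum. Nearest to Fcgr3 were Pdia6 (0.059), a protein disulfide isomerase, Kpna2 (0.072), a nuclear import adaptor, and Skp1 (0.078), a ubiquitin ligase subunit. Nearest to Fcgr4 were Dab2 (0.058), an endocytic adaptor, Ptp4a2 (0.059), a phosphatase, and Pnisr (0.06). Fcgr3 itself varied by 0.217 and Fcgr4 by 0.173, so these distances are a larger part of that variation than those of Scarb1. Likeness here is a description over arrays that share their treatments.

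Of the genes that carry Fc receptor signals, 26 of 28 listed were measured and all 26 were above background in at least 1 group. With TsSP against LPS alone, 9 of them were called higher and 2 lower, with a median change of 0.3. Over all genes 11.0% were called higher and 18.1% in either direction, with a median of 0.02. Over the 8289 genes above background in all 4 groups, 34.2% were called and the median was 0.1, and the counts of the lists below are likewise to be read beside these values. Inpp5d, the lipid phosphatase recruited by Fcgr2b, averaged 13.19 with TsSP and 11.2 with LPS alone and rose 3.97-fold (limma adjusted p = 5.54e-06). Dok2, an adaptor that restrains tyrosine kinase signals, rose 2.58-fold (adjusted p = 9.96e-06), Fgr, a Src-family kinase, 2.41-fold (adjusted p = 0.000219) and Pik3cg, a phosphoinositide kinase, 2.0-fold (adjusted p = 0.000394), each by limma. Blnk, an adaptor downstream of Syk, was 2.78-fold lower (adjusted p = 5.54e-06) and the kinase Src 2.32-fold lower (adjusted p = 0.00346). All 6 of these calls held in 20 of 20 alternatives. After exon control centring the list held 5 called higher and 7 lower, and 4 of the 9 genes called higher lost their call under 1 or more alternatives.

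Other receptors for immunoglobulin were measured for 11 of 11 listed, of which 3 were above background in at least 1 group, with 1 called higher, 1 lower and a median change of -0.05. Trim21, a cytosolic antibody receptor, was 6.21-fold lower with TsSP than with LPS alone (limma adjusted p = 9.26e-07). Fcrl1, an Fc receptor-like gene known from B cells, was 1.66-fold higher (limma adjusted p = 0.00975), a call lost after quantile normalization (adjusted p = 0.0629). Of the other scavenger receptors, 16 of 17 were measured and 6 were above background in at least 1 group, with a median change of 0.12. Lrp1, a large endocytic receptor, was 2.53-fold higher (limma adjusted p = 0.00109), and Cxcl16, a chemokine that also binds oxidised lipoprotein on the cell surface, was 1.41-fold lower (limma adjusted p = 0.00506). Without LPS replicate 1 or TsSP replicate 3 this list had 2 called higher, and without LPS replicate 3 it had 2 called lower. The 3 relatives of Mrc1 (Mrc2, Pla2r1 and Ly75) were above background on no array and not called.

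Receptors and bridging proteins for dying cells counted 5 higher and 1 lower of 15, beside 18.1% of all genes in either direction, with a median of 0.16, and 9 of the 15 were above background in at least 1 group. Cd300a, an inhibitory lipid receptor, was 1.98-fold higher with TsSP than with LPS alone (limma adjusted p = 0.00124), Cd300lf 1.82-fold (adjusted p = 0.0334), the integrin chain Itgb5 1.53-fold (adjusted p = 0.00541), the chaperone Calr 1.4-fold (adjusted p = 0.0041) and Itgav 1.35-fold (adjusted p = 0.047). The call of Itgav was lost in 14 of 20 alternatives (adjusted p up to 0.344) and that of Cd300lf in 7 of 20 (adjusted p up to 0.131). Itgb5 was not called with both agents against LPS alone (log2 0.36, limma adjusted p = 0.0765) or with TsSP added to inulin (log2 0.09, limma adjusted p = 0.735). Leaving out LPS replicate 3 or TsSP replicate 3 gave 3 calls higher in place of 5, as did quantile normalization, and exon control centring gave 1. The receptor kinase Axl was at least 1.11-fold lower (limma adjusted p = 0.00118), being below background on the 3 arrays with TsSP and above it on 2 of 3 with LPS alone. Complement receptors and opsonins counted 2 higher and 1 lower of 11, with a median of 0.01: the chains of complement receptor 3, Itgam (1.67-fold, limma adjusted p = 0.000388) and Itgb2 (1.61-fold, limma adjusted p = 0.00244), were higher, and Cfb, a factor of the alternative pathway, was 3.56-fold lower (limma adjusted p = 1.07e-06).

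Genes of lipid handling around the scavenger receptors counted 3 higher and 5 lower of 12, all above background in at least 1 group, beside 34.2% called among genes above background, with a median of -0.12. The cholesterol exporter Abca1 was 8.0-fold higher (limma adjusted p = 1.39e-06), while Abcg1, which passes cholesterol to high-density lipoprotein, was 2.6-fold lower (limma adjusted p = 3.93e-05). Acsl4 (1.46-fold) and Fabp5 (1.42-fold), which activate and carry fatty acids, were higher (limma adjusted p = 0.00477 and 0.0134), but not called after exon control centring (adjusted p = 0.0692 and 0.157), which gave 1 called higher in place of 3. Lpl (2.17-fold), Cpt1a (2.13-fold), Fabp4 (2.17-fold) and Nceh1 (1.56-fold), genes of lipid hydrolysis, oxidation and binding, were lower, with limma adjusted p of 0.000183, 6.9e-05, 0.0191 and 0.00092 in that order. The call of Fabp4 was lost in 3 of 12 fits that leave out an array, where its adjusted p reached 0.0732. The averaged comparison counted the same numbers, 3 higher and 5 lower.

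Transcription factors known to act on the receptor genes counted 4 higher and 2 lower of 13, of which 10 were above background in at least 1 group, beside 18.1% of all genes called and 34.2% of those above background, with a median of 0.02. Irf8, a regulator of macrophage identity that acts with PU.1, was 3.69-fold higher with TsSP than with LPS alone (limma adjusted p = 2.89e-06) and Stat6, the factor of interleukin-4 signals, 1.83-fold (limma adjusted p = 0.000242). Rxra, a partner of lipid-sensing receptors that was below background with LPS alone, was at least 1.54-fold higher (limma adjusted p = 0.00272), and Stat3 1.27-fold higher (limma adjusted p = 0.0331), a call lost in 6 of 12 fits that leave out an array. Irf1, which binds interferon-stimulated response elements, was 4.11-fold lower (limma adjusted p = 1.71e-06) and Mitf 3.09-fold lower (limma adjusted p = 2.35e-06). Inulin contrasts and the interaction called 0 genes of any of these lists in limma.

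**Figure D5:**
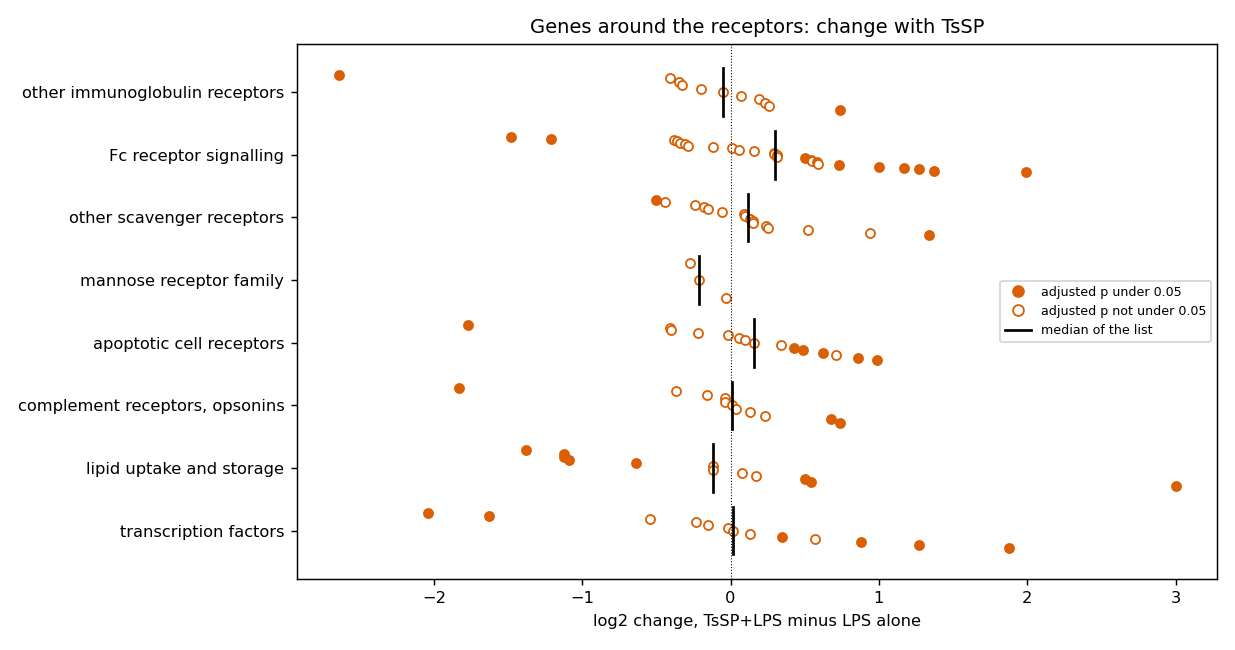
Log2 change with TsSP against LPS alone for the measured genes of 8 lists around the receptors, with 1 point per gene, filled where the adjusted p was under 0.05, and a black line at the median of each list. Fc receptor signalling has its median at 0.3, with Inpp5d at 1.99 and Blnk at -1.48, and the other medians lie between -0.21 and 0.16.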

How the data were processed

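RNA from 12 samples of RAW 264.7 cells, 3 per treatment, was measured with 1 Affymetrix array each. The deposited table gives 1 log2 signal per probe set and array. The base is inferred from its range (1.32 to 18.94), and how the authors corrected and normalized the values is not given in the sources used here, so compression of bright signals cannot be judged. Values were used as deposited. Of 28846 probe sets, 19572 have 1 symbol and 0 have several. RefSeq gene IDs matched all of these, which left 19505 genes at 1 probe set each (highest mean). limma 3.58.1 in R 4.3.3 (lmFit, eBayes) fitted 4 group means (8 residual and 3.35 prior degrees of freedom), with 6 contrasts and an F test, Benjamini-Hochberg adjustment over all genes and a threshold of 0.05. The code was tested on simulated data. A bound (at least N-fold) uses the background level for the dim group. The receptors and lists were chosen with earlier results of these data known. From each list the text names genes called with TsSP against LPS alone, up to 4 per direction by smallest p, or all of 5 or fewer. Plots used matplotlib 3.10.9 in Python 3.11.15.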

Additional observations from a re-analysis of the deposited data

How the results depend on the processing

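Over 20 alternatives each for 56 single-gene results on the receptors, 1040 of 1120 values kept their side of the threshold. A call was lost in 57 and gained in 23, 0 calls turned direction, and 49 values that were never called changed sign. These totals include the inulin and interaction results, for which no gene was called in any setting. Of 20 alternatives, Fcgr4 lost its call in 14 with TsSP against LPS alone. With both agents against LPS alone, Fcgr1 lost its call in 7 and Fcgr3 in 15. With TsSP added to inulin, Fcgr1 lost its call in 14 and Fcgr3 in 4. Exon control centring left 1 receptor called (Scarb1) in each TsSP comparison of 3 arrays with 3 and 2 in the averaged one. Median centring left 1 with TsSP against LPS alone and 1 with both agents against LPS alone. A mean-variance trend called 4 receptors with TsSP against LPS alone and 6 in each of the other 2 comparisons. Fitting and adjusting over just the genes above background called 6 with both agents and 5 with TsSP added to inulin. Leaving out 1 array gave 1 to 3 calls with TsSP against LPS alone, 1 to 2 with both agents, 1 to 3 with TsSP added to inulin and 4 to 5 in the averaged comparison. The ratio of Fcgr3 to Fcgr2b was 0.15 to 0.22 without single arrays. The ratio of Fcgr1 to Fcgr2b was 0.15 higher with TsSP after quantile normalization, and that of Fcgr4 to Fcgr2b 0.22 higher. With values as deposited, the Fcgr4 ratio was 0.11 higher, at 0.0 within the arrays with inulin and 0.22 within those without. Replicate numbers did not pair the arrays, since same-numbered deviations correlated at -0.1 to 0.12 and 1 of 12 arrays correlated best with its own number; a replicate block left 1 receptor called with TsSP against LPS alone, 2 with both agents and 2 with TsSP added to inulin. Where a cause is not named, the cause was not tested. Precision is limited by the 3 arrays in a group, and Cd36 and Mrc1 have only an upper bound.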

Other observations

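Fcgr2b, Fcgr4, Fcgr3 and Fcer1g lie in that order along chromosome 1 in the RefSeq annotation, with other genes between them. Among the measured protein-coding genes between Fcgr3 and Fcer1g, Sdhc, a subunit of succinate dehydrogenase, was 0.48 higher on the log2 scale with TsSP than with LPS alone (limma adjusted p = 0.0139), and Tomm40l differed by 0.23 (limma adjusted p = 0.465). Cfap126 averaged 6.44 with TsSP and 5.49 without, above background on 6 of 12 arrays, so no fold is given. Pcp4l1, Nr1i3 and Apoa2 were above background on no array. These neighbours were looked at after the receptor values had been seen.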
